A study of Homo sapiens with 24 samples.

Results

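The let-7 family guide strands are the mature miRNAs cut from the 5′ arm of the let-7 hairpins, together with hsa-miR-98-5p, which carries the same seed. The members were taken by name, and all 9 of them were found among the 2656 mature miRNAs of the table. The miR-seq data comprised 24 libraries of OV90, an ovarian carcinoma line of epithelial origin in long use, which grows attached to plastic or, in low-attachment plates, as spheroids. There were 6 groups of 4 libraries, namely adherent and spheroid cells with a negative control shRNA (shNeg), with an shRNA against RELA or with an shRNA against RELB. The cells of every group carried an inducible shRNA and were given 1 µg/ml doxycycline for 72 h, the shNeg groups included, although a label calls these Wildtype. Adherent cells were kept in RPMI with tetracycline-free serum, and spheroids in DMEM-F12 with serum replacement, EGF and FGF, so that growth form and medium cannot be told apart. MiR-seq does not read the RELA and RELB mRNAs, so the depth of either knockdown is not shown by these libraries, and nothing in the labels says that the 4 libraries of a group came from separate cultures, so the p-values measure the spread between libraries. RELA and RELB are subunits of NF-κB transcription factors, RELA acting mainly in the canonical and RELB in the non-canonical pathway.

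let-7 miRNAs are conserved regulators of developmental timing and differentiation. Their seed pairs with sites in messengers such as HMGA2, LIN28B and members of the RAS family, whose translation they repress, and in many epithelial cancers they are described as tumor suppressors. LIN28 proteins bind the loop of let-7 precursors and block their maturation, and in stem-like cells let-7 is typically low. A member is named by its mature sequence and not by its gene, since some members are cut from several hairpins that lie on different chromosomes.

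The mature sequences (RefSeq, GRCh38.p14) are shown because the members differ by so little that a level read for one of them rests on a few bases. The capitals mark the seed, bases 2 to 8.
hsa-let-7a-5p: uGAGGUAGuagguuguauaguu
hsa-let-7b-5p: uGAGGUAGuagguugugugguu
hsa-let-7c-5p: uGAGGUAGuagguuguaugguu
hsa-let-7d-5p: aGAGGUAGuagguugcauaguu
hsa-let-7e-5p: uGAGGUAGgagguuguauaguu
hsa-let-7f-5p: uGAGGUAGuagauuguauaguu
hsa-let-7g-5p: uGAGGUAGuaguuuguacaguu
hsa-let-7i-5p: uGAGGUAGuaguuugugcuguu
hsa-miR-98-5p: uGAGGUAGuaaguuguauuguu

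All 9 sequences are 22 bases long and share 1 seed. With positions counted from the 5′ end and the base of let-7a-5p given first, let-7c-5p differed from let-7a-5p by A19G, let-7e-5p by U9G and let-7f-5p by G12A. let-7b-5p differed from let-7a-5p by A17G and A19G, and hence from let-7c-5p by 1 base. let-7i-5p was the farthest from let-7a-5p, with 4 differences. Bases G and C made up 45.5% of let-7b-5p, the highest value of the family, 40.9% of let-7c-5p, let-7d-5p, let-7e-5p and let-7i-5p, 36.4% of let-7a-5p and let-7g-5p, and 31.8% of let-7f-5p and miR-98-5p.

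The 9 members come from 12 hairpins. MIRLET7A1, MIRLET7F1 and MIRLET7D lie in exons of the non-coding RNA MIRLET7A1HG on chromosome 9, at chr9:94175957-94176036, chr9:94176347-94176433 and chr9:94178834-94178920. MIRLET7A3 (chr22:46112749-46112822) and MIRLET7B (chr22:46113686-46113768) lie in an exon of MIRLET7BHG. MIRLET7C (chr21:16539828-16539911) lies in an exon of MIR99AHG, which also holds miR-99a and miR-125b-2, and MIRLET7A2 (chr11:122146522-122146593) lies in an intron of MIR100HG, which also holds miR-100 and miR-125b-1. MIRLET7E (chr19:51692786-51692864) was placed in an intron of SPACA6, beside miR-99b and miR-125a. MIRLET7F2 (chrX:53557192-53557274) and MIR98 (chrX:53556223-53556341) lie in an intron of HUWE1, MIRLET7G (chr3:52268278-52268361) in an intron of WDR82, and MIRLET7I (chr12:62603686-62603769) in an intron of MIRLET7IHG that overlaps an exon of a second non-coding RNA. The hairpins of the members that fell after knockdown, let-7b and let-7c, are shown with both mature arms in capitals, the guide strand first.
MIRLET7B: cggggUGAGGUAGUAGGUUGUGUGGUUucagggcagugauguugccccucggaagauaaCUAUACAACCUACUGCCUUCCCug
MIRLET7C: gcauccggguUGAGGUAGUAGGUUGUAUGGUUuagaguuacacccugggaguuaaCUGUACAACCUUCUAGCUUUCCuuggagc

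Total counts ran from 3797175 to 8283549 in the 12 adherent libraries and from 959141 to 3580931 in the 12 spheroid libraries, the shallowest being those of spheroid shNeg. Spheroid shNeg replicate 1 stood apart, with a count for 432 miRNAs against 813 to 885 in the rest of its group, and the calls on members and related miRNAs that rest on it are given with and without it. Levels are CPM, counts relative to the size of the library, scaled by TMM factors, which adjust for differences in the composition of libraries. These factors were 1.12 to 1.37 in spheroid shNeg and 0.730 to 1.09 elsewhere. A difference was called when the Benjamini-Hochberg FDR of edgeR's quasi-likelihood test over 905 miRNAs was below 0.01 and the fold change above 2. The 7 epithelial marker miRNAs all had counts in each group, with sums of 2486 to 16336 CPM, almost all of it from miR-200c-3p and miR-205-5p, while miR-429, of the same family as miR-200c, reached 9 counts at most. The sum was 4853 to 5073 CPM in adherent shNeg, 2486 to 3449 CPM with RELA and 7799 to 9638 CPM with RELB knockdown, and in spheroids 3238 to 4629.6 CPM, 4489 to 7999.9 CPM and 7911 to 16336 CPM, and its part in the results on let-7 was not tested. Within it, miR-200c-3p rose by 1.32 on the log2 scale with RELB knockdown in adherent cells and by 2.53 in spheroids, while miR-205-5p fell by 1.28 and by 1.99 in the same comparisons. The 6 blood cell markers summed to 7.63 to 50.9 CPM and the 3 muscle markers to 8.40 CPM at most. miR-122-5p, a miRNA abundant in liver and serum, was measured at 13732 to 29400 CPM.

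Every member was detected in every library, so all 9 passed the filter on low counts in each group. let-7e-5p and let-7a-5p were by far the most abundant members and together held 74.6 to 86.7% of the family's counts. let-7e-5p was the first or second most abundant miRNA of each library, and let-7a-5p ranked from 2 to 5. At the other end, miR-98-5p ranked between 64 and 163, let-7b-5p between 23 and 130, and let-7c-5p between 46 and 122. Averaged over the groups, let-7e-5p had 146508 CPM, let-7a-5p 90738 CPM, let-7i-5p 21015 CPM, let-7f-5p 13712 CPM, let-7g-5p 7921 CPM, let-7d-5p 5412 CPM, let-7b-5p 1128 CPM, let-7c-5p 1005 CPM and miR-98-5p 685 CPM. The span between the highest and the lowest group mean ran from 1.52-fold for let-7i-5p, the steadiest member, to 20.2-fold for let-7b-5p.

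**Figure D1:**
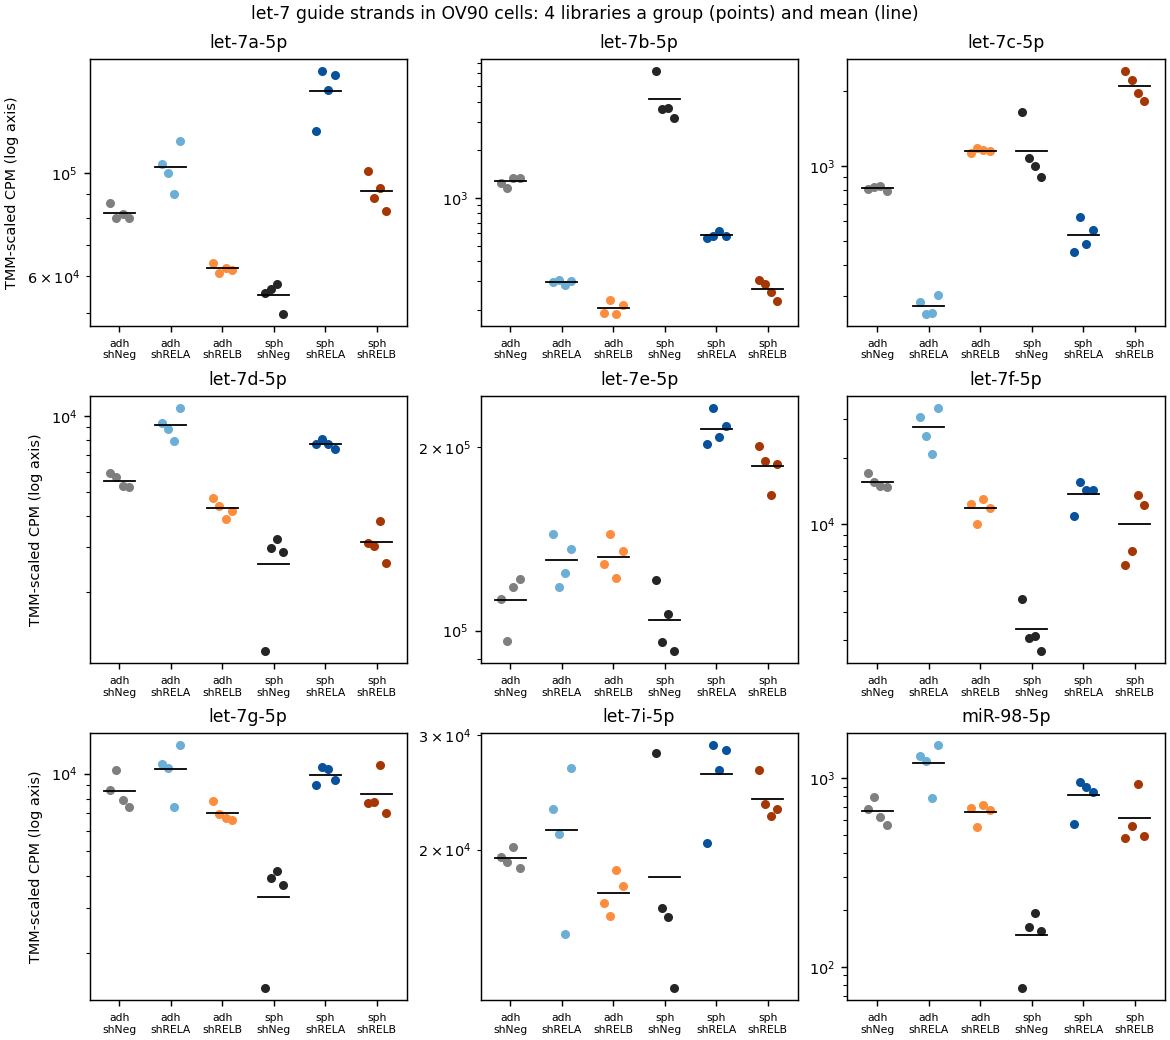
Level of each let-7 guide strand as TMM-scaled CPM (vertical log axis, a scale of its own in each panel) in the 6 groups, with 1 point a library and the group mean as a line (adh, adherent; sph, spheroid). let-7b-5p is highest in spheroid shNeg (3149 to 6196 CPM) and low in all 4 knockdown groups, let-7c-5p is low in both RELA knockdown groups only, and miR-98-5p is lowest in spheroid shNeg (77.0 to 193 CPM).

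The family's share of all counts, which uses no scaling factor, was 22.8 ± 0.211% (SD, n = 4) in adherent shNeg, 26.0 ± 0.844% with RELA knockdown and 23.98 ± 0.987% after RELB knockdown. In spheroids it was 23.9 ± 1.34% with shNeg, 40.5 ± 4.19% with RELA knockdown and 33.9 ± 2.05% with RELB knockdown. The 8 spheroid knockdown libraries, at 31.0 to 43.5%, all lay above the 16 others, whose highest was 26.5%. Most of this share was let-7e-5p and let-7a-5p. As a share of the family, let-7b-5p was 0.514 ± 0.0199% in adherent shNeg and 2.13 ± 0.463% in spheroid shNeg, and 0.0824 to 0.139% on average in the 4 knockdown groups. No test was run on the sum, which is a score over the members.

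**Figure D2:**
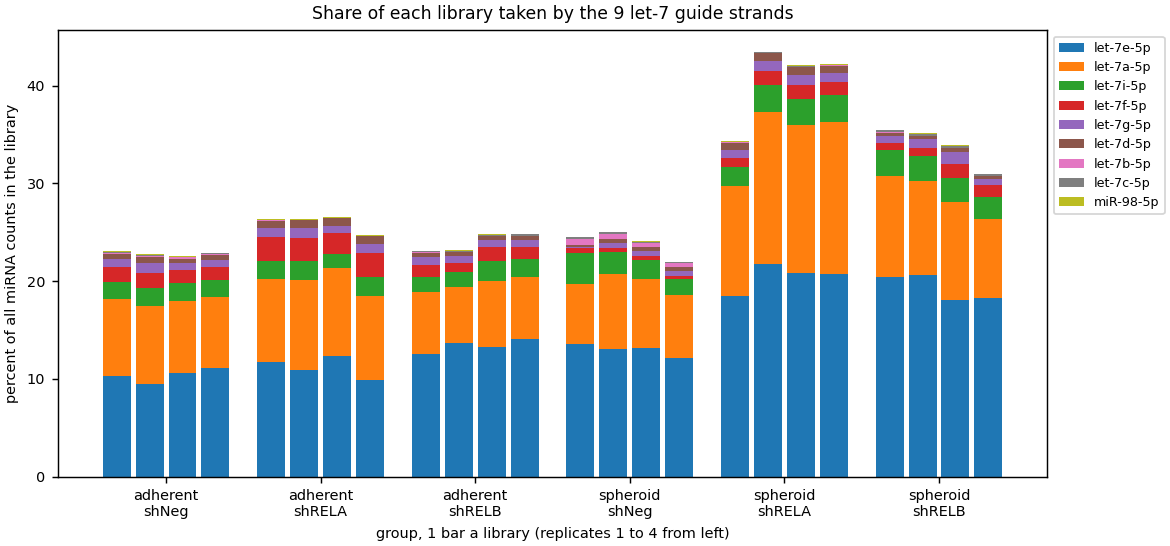
Percent of all miRNA counts of a library held by each let-7 guide strand (vertical axis, stacked), with 1 bar for each of the 24 libraries in their 6 groups. let-7e-5p and let-7a-5p fill most of each bar, and the 8 knockdown spheroid libraries (31.0 to 43.5%) stand above all others.

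let-7b-5p was down-regulated by both knockdowns in both cultures, and was the member with the largest fold change in each of the 4 knockdown comparisons. In adherent shNeg its 4 libraries were at 1156, 1245, 1328 and 1333 CPM. With RELA knockdown they were at 287, 299, 302 and 308 CPM, and with RELB knockdown at 187, 189.7, 215 and 230.1 CPM. The highest knockdown library, at 308 CPM, lay far below the lowest control library, and the RELA and RELB knockdown groups did not overlap either.

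In spheroid shNeg, let-7b-5p was at 3149, 3572, 3652 and 6196 CPM, the last being replicate 1. RELA knockdown spheroids were at 560.4, 577, 579 and 623 CPM, and RELB knockdown spheroids at 225, 259, 287 and 305 CPM. The order of the group means was adherent RELB knockdown, spheroid RELB knockdown, adherent RELA knockdown, spheroid RELA knockdown, adherent shNeg and spheroid shNeg. The lowest 3 of these overlapped as neighbours, and the highest 3 each lay wholly above the group below.

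In the fit across all miRNAs, let-7b-5p fell by 2.08 on the log2 scale with RELA knockdown in adherent cells (SE 0.18, edgeR FDR = 9.68e-11), which is 4.23-fold lower. With RELB knockdown it fell by 2.62 (SE 0.19, edgeR FDR = 5.83e-13), 6.16-fold lower. In spheroids it fell by 2.82 with RELA knockdown (SE 0.19, edgeR FDR = 1.30e-13), 7.08-fold lower, and with RELB knockdown it fell by 3.95 (SE 0.20, edgeR FDR = 3.47e-17), 15.4-fold lower. Without spheroid shNeg replicate 1 the spheroid values were -2.56 and -3.68, and both calls held. Each of the 4 calls held in all 24 alternatives in adherent cells and all 23 in spheroids, among them those that correct for base composition.

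The members called in adherent cells were few. With RELA knockdown, 2 of 9 members were called, both lower, let-7b-5p and let-7c-5p, where 3.76% of the 905 miRNAs tested were called, 1.10% higher and 2.65% lower. With RELB knockdown, 1 of 9 was called, let-7b-5p, where 7.07% of all miRNAs were called, 3.54% higher and 3.54% lower. The median log2 fold change of the 9 members was 0.29 with RELA knockdown, beside 0.09 over all miRNAs, and -0.28 with RELB knockdown, beside 0.04.

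**Figure D3:**
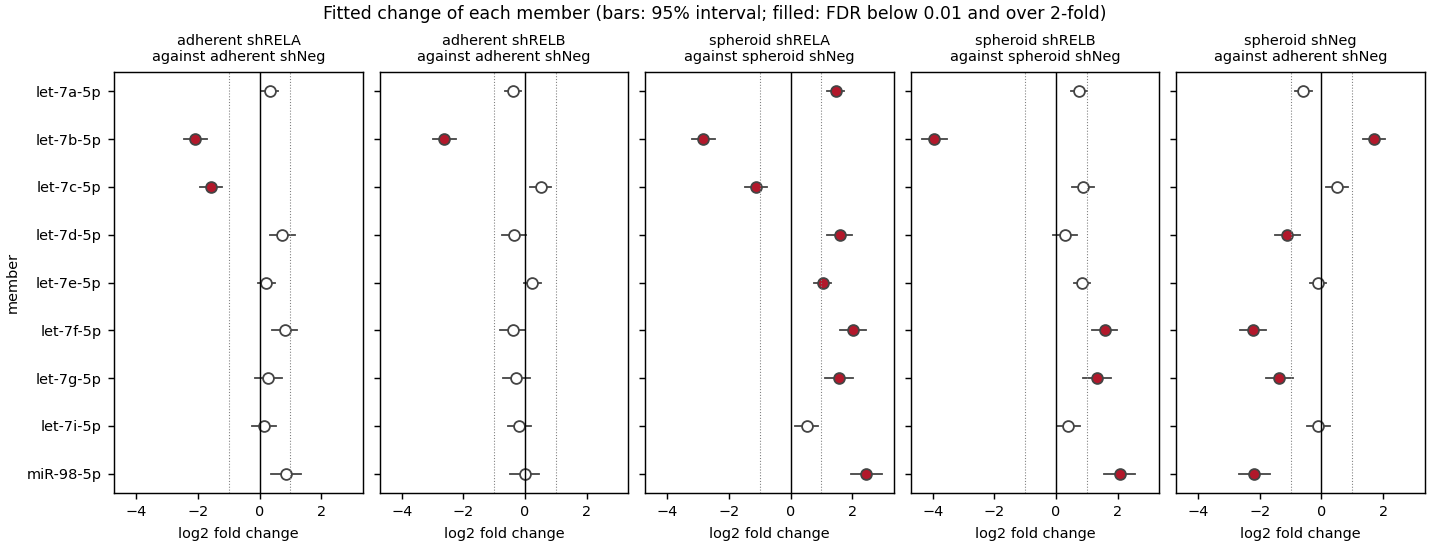
Fitted log2 fold change (horizontal axis) of each let-7 guide strand in the 4 knockdown comparisons and between the shNeg cultures, with 95% intervals as bars. Filled points had an FDR below 0.01 and a fold change above 2, and dotted lines mark 2-fold. let-7b-5p lies at -2.08, -2.62, -2.82 and -3.95 in the knockdown comparisons and let-7c-5p is called with RELA knockdown only, while in spheroids most other members lie to the right of 0.

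let-7c-5p, 1 base from let-7b-5p, fell with RELA knockdown in both cultures and was not called with RELB knockdown. In adherent shNeg it was at 790.4, 805, 823 and 831 CPM, with RELA knockdown at 253, 255, 283 and 300.5 CPM, and with RELB knockdown at 1125, 1155, 1156 and 1184 CPM. All 4 RELB knockdown libraries lay above, and all 4 RELA knockdown libraries below, those of the control. The log2 fold change was -1.57 with RELA knockdown (SE 0.18, edgeR FDR = 2.01e-08) and 0.51 with RELB knockdown (SE 0.17, edgeR FDR = 0.0463), the latter not called.

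In spheroids, let-7c-5p was at 899.7, 996, 1074 and 1646 CPM with shNeg, the last again replicate 1, at 450.3, 484, 554 and 623 CPM with RELA knockdown, and at 1837, 1975, 2216 and 2414 CPM with RELB knockdown. The 3 groups did not overlap. The change was -1.13 with RELA knockdown (SE 0.17, edgeR FDR = 6.85e-06) and 0.87 with RELB knockdown (SE 0.17, edgeR FDR = 0.000223), under 2-fold. Without spheroid shNeg replicate 1 these became -0.91, no longer past 2-fold, and 1.09, now past it.

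The difference between the knockdowns was itself called for let-7c-5p. It was 4.24-fold higher with RELB than with RELA knockdown in adherent cells (log2 fold change 2.08, SE 0.18, edgeR FDR = 4.85e-11) and 3.998-fold higher in spheroids (1.999, SE 0.18, edgeR FDR = 1.14e-10). In adherent cells, 3 of 9 members were called between the knockdowns, beside 10.8% of all miRNAs, the others being let-7d-5p (-1.10) and let-7f-5p (-1.22), both lower with RELB knockdown. Both were under 2-fold with library totals in place of TMM (-0.86 and -0.96) and in the 3 corrections for base composition described with the spheroid results (-0.88 in each, and -0.65 to -0.64), and let-7d-5p also with a filter of 10 CPM (-0.99). In spheroids, 3 of 9 were called, beside 6.63% of all miRNAs, the others being let-7b-5p (-1.12) and let-7d-5p (-1.30), again lower with RELB knockdown. With library totals, this difference of let-7b-5p was just under 2-fold (-0.99) and not called. The let-7b-5p count was 156 ± 11.8% of let-7c-5p in adherent shNeg and 356 ± 19.2% in spheroid shNeg, 110.1 ± 9.29% and 113 ± 16.9% with RELA knockdown, and 17.8 ± 1.501% and 12.7 ± 0.382% with RELB knockdown. let-7c-5p had 0.265 ± 0.0139% of the let-7a-5p count in adherent RELA knockdown cells and 2.31 ± 0.169% in RELB knockdown spheroids, and whether reads of the far more abundant let-7a-5p were counted as let-7c-5p was not tested.

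The other miRNAs of the let-7c cluster moved with it under RELA knockdown. miR-99a-5p was at 44.7 to 56.0 CPM in adherent shNeg and at 0.763 to 1.16 CPM with RELA knockdown, a log2 fold change of -5.54 (SE 0.47, edgeR FDR = 5.20e-11). miR-125b-5p was at 463 to 530 CPM and at 13.9 to 16.7 CPM, a log2 fold change of -5.05 (SE 0.24, edgeR FDR = 6.91e-18). Their passenger strands miR-99a-3p and miR-125b-2-3p had log2 fold changes of -5.46 and -4.93, both called. The mature miR-125b-5p is also made from a hairpin in MIR100HG, whose miR-100-5p reached 35 counts at most.

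In spheroids with RELA knockdown, miR-125b-5p fell by 3.45 (SE 0.23, edgeR FDR = 1.30e-13), from 179 to 243 CPM to 13.9 to 29.1 CPM, and miR-99a-5p fell by 2.26 (SE 0.54, edgeR FDR = 0.00161). Spheroid shNeg replicate 1 had no count of miR-99a-5p. With RELB knockdown, neither miR-99a-5p nor miR-125b-5p was called in either culture, with values of 0.20 and 0.19 in adherent cells and 1.05 and 0.69 in spheroids. Of the 13 miRNAs that share a cluster with a let-7 hairpin, 9 passed the filter. With RELA knockdown 4 of these were called lower in each culture, beside 2.65% of all miRNAs in adherent cells and 7.62% in spheroids. In adherent cells these were miR-99a-5p, miR-125b-5p and their passenger strands miR-99a-3p and miR-125b-2-3p. In spheroids miR-99a-3p was at -4.28 (edgeR FDR = 0.000654). There miR-125b-2-3p was not called (-1.06, edgeR FDR = 0.203), and miR-100-5p was called in its place. With RELB knockdown none was called in adherent cells and miR-100-5p was called lower in spheroids. None was called higher in these 4 comparisons. Both spheroid calls of miR-100-5p rest on replicate 4 of spheroid shNeg. Its 35 counts compare with 0, 0 and 5 in the rest of that group, and with this library left out both calls were lost (-2.84, edgeR FDR = 0.126 with RELA, and -0.84, edgeR FDR = 0.582 with RELB knockdown). miR-99a-5p was also no longer called in RELA knockdown spheroids without this library (-1.79, edgeR FDR = 0.0178). The partners of let-7e-5p, miR-99b and miR-125a, were not called in any knockdown comparison.

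The summed level of the 5 fibroblast and smooth muscle markers also moved with RELA knockdown, from 316 to 366 CPM in adherent shNeg to 68.0 to 119.6 CPM, and was 322 to 359.5 CPM with RELB knockdown. In spheroids the sums were 114 to 161 CPM, 72.6 to 96.2 CPM and 199 to 315 CPM. miR-143-3p, miR-145-5p and miR-199a-3p made up most of it, and miR-199a-5p and miR-214-3p, which mark the same cells, stayed at or under 24 counts. Its part in the change of let-7c-5p was not tested. All libraries are of the OV90 carcinoma line, so these sums are not read as a share of fibroblasts or smooth muscle cells. In bulk libraries, fewer cells with a miRNA and less of it per cell cannot be told apart.

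**Figure D4:**
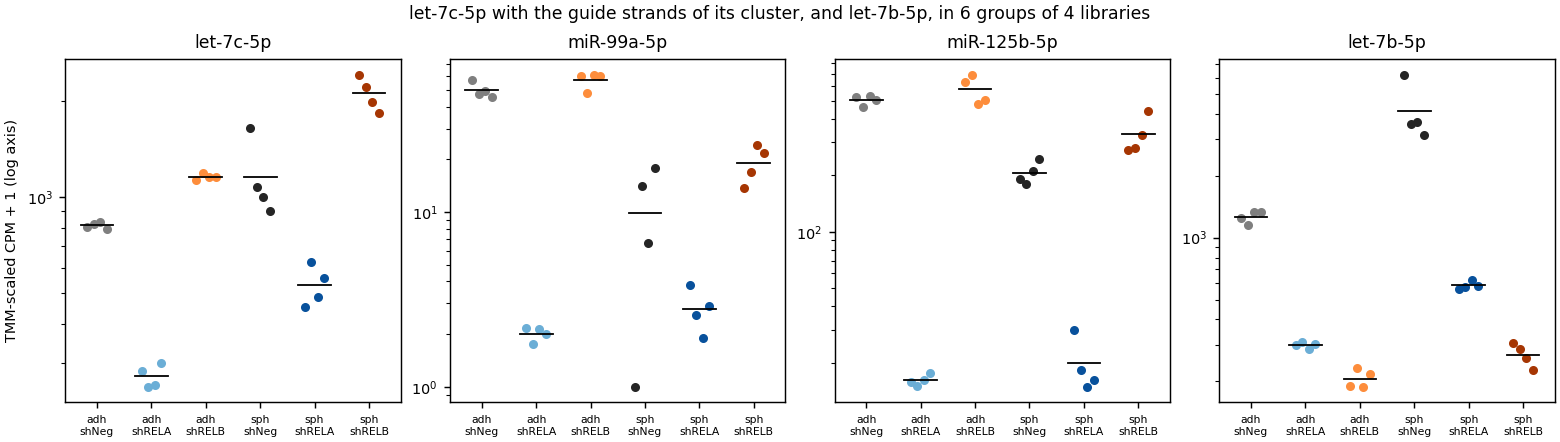
TMM-scaled CPM plus 1 (vertical log axis, a scale of its own in each panel) of let-7c-5p, of miR-99a-5p and miR-125b-5p from its cluster, and of let-7b-5p, with 1 point a library and group means as lines (adh, adherent; sph, spheroid). The first 3 panels are low in both RELA knockdown groups and not in the RELB knockdown groups, whereas let-7b-5p is low in all 4.

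The promoter of MIR99AHG was searched for the 10-base κB consensus on both strands. RefSeq gives 6 start sites, and the window of 300 bases around the start held matches at 1 of them (chr21:16070864-16071163, plus strand). It held 2 overlapping matches, shown in capitals.
MIR99AHG: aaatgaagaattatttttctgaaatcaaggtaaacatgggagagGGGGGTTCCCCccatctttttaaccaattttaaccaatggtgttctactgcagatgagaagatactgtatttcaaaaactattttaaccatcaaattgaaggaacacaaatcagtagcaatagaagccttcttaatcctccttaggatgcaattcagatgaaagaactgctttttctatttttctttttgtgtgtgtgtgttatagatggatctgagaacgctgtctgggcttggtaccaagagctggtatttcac
A match was found in 5.91% of all 35116 promoters of this length, in 1 of 6 for MIR100HG, and in none of the windows of MIRLET7BHG, MIRLET7A1HG, MIRLET7IHG, SPACA6, HUWE1 and WDR82. The SPACA6 window (chr19:51693080-51693379, plus strand) lies downstream of MIRLET7E. The MIR100HG window with the match (chr11:122100797-122101096, minus strand) lies downstream of MIRLET7A2. Neither window therefore holds a start for its let-7 hairpin. The letters printed describe the MIR99AHG window and do not show binding.

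In spheroids, 6 members rose with RELA knockdown and 3 of these also rose with RELB knockdown. With RELA knockdown, 8 of 9 members were called, 6 higher and 2 lower, where 15.1% of all miRNAs were called, 7.51% higher and 7.62% lower. With RELB knockdown, 4 of 9 were called, 3 higher and 1 lower, where 13.4% of all miRNAs were called, 7.29% higher and 6.08% lower. The median over the members was 1.46 with RELA and 0.84 with RELB knockdown, beside 0.09 and 0.16 over all miRNAs. Both comparisons use the same 4 shNeg libraries.

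miR-98-5p, encoded beside let-7f-2 in HUWE1, had the largest increase. Spheroid shNeg libraries were at 77.0, 155, 163 and 193 CPM, RELA knockdown at 568, 840.5, 896 and 949 CPM, and RELB knockdown at 483, 493, 561 and 933 CPM. All 8 knockdown libraries lay above the control, by a log2 fold change of 2.46 with RELA (SE 0.25, edgeR FDR = 2.80e-09) and 2.07 with RELB knockdown (SE 0.25, edgeR FDR = 6.46e-08). Both calls held in all 23 alternatives.

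let-7f-5p was at 2662, 3042, 3134 and 4580 CPM in spheroid shNeg, at 10921, 14345, 14356 and 15566 CPM with RELA knockdown and at 6547, 7583, 12278 and 13624 CPM with RELB knockdown. It rose by 2.04 with RELA (SE 0.21, edgeR FDR = 2.37e-09) and by 1.58 with RELB knockdown (SE 0.20, edgeR FDR = 2.56e-07). The RELB knockdown libraries fell into a lower and a higher pair, both above the control.

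let-7g-5p was at 1457, 3681, 3913 and 4176 CPM with shNeg, the lowest being replicate 1, at 9023 to 10615 CPM with RELA and at 7007 to 10860 CPM with RELB knockdown. It rose by 1.58 (SE 0.22, edgeR FDR = 1.46e-06) and by 1.33 (SE 0.22, edgeR FDR = 1.44e-05). let-7a-5p was at 49739, 55205, 56313 and 57672 CPM with shNeg, at 123179 to 165788 CPM with RELA and at 83068 to 101093 CPM with RELB knockdown. It rose by 1.46 with RELA knockdown (SE 0.13, edgeR FDR = 1.80e-10), and with RELB knockdown its difference of 0.74 had an FDR of 4.78e-05 in edgeR but was under 2-fold.

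let-7d-5p was at 1159, 2888, 2976 and 3239 CPM in spheroid shNeg, the lowest being replicate 1, at 7386 to 8063 CPM with RELA and at 2589 to 3815 CPM with RELB knockdown. It rose by 1.59 with RELA knockdown (SE 0.20, edgeR FDR = 2.38e-07), and the RELB knockdown libraries overlapped the control (0.29, SE 0.20, edgeR FDR = 0.284). let-7e-5p, the most abundant member, was at 92566 to 121050 CPM with shNeg, at 201941 to 231157 CPM with RELA and at 166830 to 200270 CPM with RELB knockdown. Its log2 fold change of 1.04 with RELA knockdown (SE 0.13, edgeR FDR = 2.38e-07) lay just past 2-fold, and that with RELB knockdown was 0.84. The RELA call of let-7e-5p was lost in 9 of 23 alternatives, among them library totals in place of TMM (0.66) and DESeq2 (0.89). let-7i-5p was not called in any comparison, with 0.52 and 0.40 in the spheroid knockdowns, and its spheroid groups overlapped. Without spheroid shNeg replicate 1, the RELA knockdown values were 2.25 for miR-98-5p, 2.23 for let-7f-5p, 1.33 for let-7g-5p, 1.47 for let-7a-5p, 1.35 for let-7d-5p and 1.12 for let-7e-5p, all still called. The RELB knockdown values of miR-98-5p, let-7f-5p and let-7g-5p were then 1.85, 1.76 and 1.08, also still called.

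These increases ran with base composition. Over the 301 miRNAs of at least 10 CPM with a sequence, Spearman's rho between the GC content of the mature sequence and the log2 fold change was -0.44 with RELA and -0.41 with RELB knockdown in spheroids, and 0.01 and 0.34 in adherent cells. Over the 9 members it was -0.84, -0.84, -0.84 and 0.02 in the same order. The miRNAs share their libraries and the members share most of their bases, so no test was made. Of the non-member miRNAs, the 91 with a GC content no higher than that of let-7b-5p had a median of 0.77 with RELA and 0.65 with RELB knockdown in spheroids, and the 201 above it had -0.03 and 0.09.

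When the trend with GC was removed in each library, in 3 ways that were chosen after seeing the data, 3 to 5 members were called with RELA knockdown in spheroids in place of 8, and 2 to 3 with RELB knockdown in place of 4. Of all miRNAs, 13.3, 11.8 and 10.1% were then called with RELA and 13.5, 12.3 and 12.8% with RELB knockdown. miR-98-5p stayed higher in all 3, at 1.52 to 1.79 with RELA and 1.09 to 1.39 with RELB knockdown, and let-7b-5p and let-7c-5p stayed lower with RELA knockdown. let-7e-5p and let-7g-5p were no longer called in any of them, at 0.10 to 0.75 and 0.78 to 0.97 with RELA knockdown, and let-7a-5p, let-7d-5p and let-7f-5p were called in some. The origin of the GC trend was not tested.

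**Figure D5:**
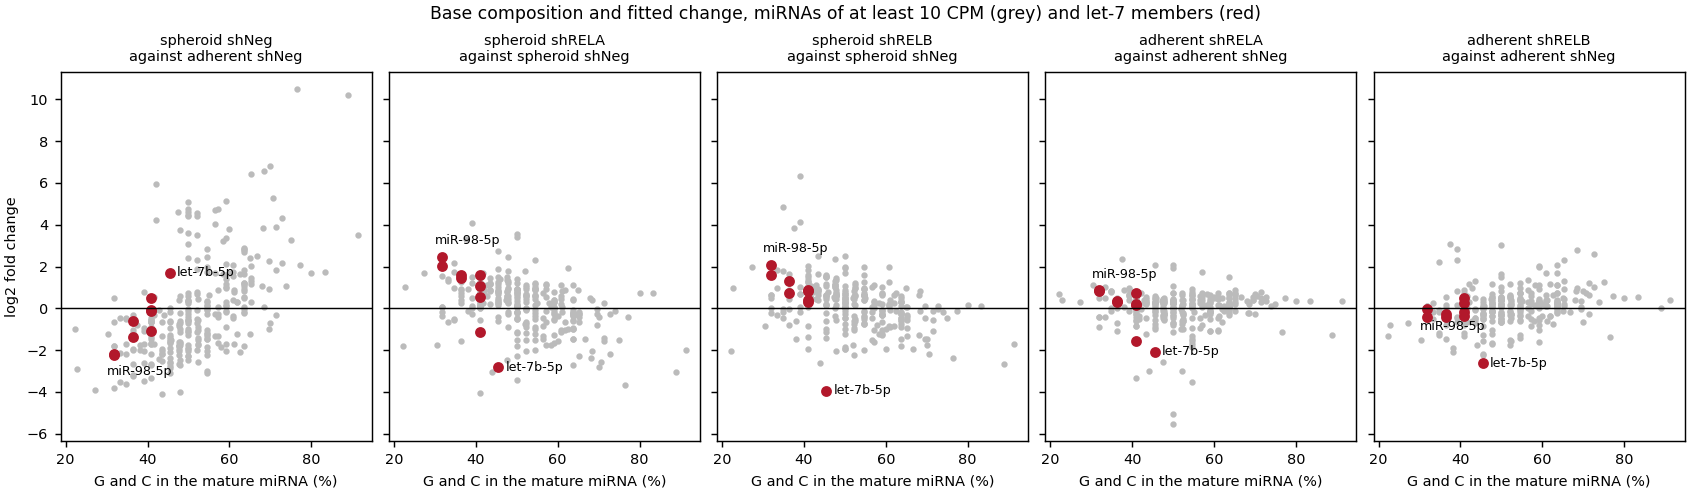
Log2 fold change (vertical axis) against the percent of G and C in the mature sequence (horizontal axis) for miRNAs of at least 10 CPM (grey) and the let-7 members (red), in 5 comparisons. Between the shNeg cultures the points climb to the right (rho 0.58), and in both spheroid knockdowns they fall to the right (-0.44 and -0.41). let-7b-5p lies well below 0 in all 4 knockdown comparisons.

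In adherent cells, the members other than let-7b-5p and let-7c-5p were not called. let-7f-5p came nearest with RELA knockdown, at 20908 to 33650 CPM against 14860 to 17166 CPM (0.82, SE 0.20, edgeR FDR = 0.00616), under 2-fold. miR-98-5p had 0.85 (SE 0.24, edgeR FDR = 0.0182) and let-7d-5p 0.74 (SE 0.20, edgeR FDR = 0.0138). The 95% intervals of let-7a-5p, 0.06 to 0.59, and let-7e-5p, -0.05 to 0.49, leave out a 2-fold change. With RELB knockdown, let-7a-5p had -0.40, let-7d-5p -0.36, let-7e-5p 0.24, let-7f-5p -0.40, let-7g-5p -0.28, let-7i-5p -0.18 and miR-98-5p -0.01.

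Between the cultures, spheroid shNeg was compared with adherent shNeg, and 5 of 9 members were called, 1 higher and 4 lower, where 42.2% of all miRNAs were called, 21.3% higher and 20.9% lower. let-7b-5p rose by 1.71 (SE 0.18, edgeR FDR = 6.67e-10), 3.27-fold. let-7f-5p fell by 2.22, miR-98-5p by 2.18, let-7g-5p by 1.37 and let-7d-5p by 1.11, with edgeR FDRs of 1.59e-05 or less. let-7a-5p had -0.59, let-7c-5p 0.51, let-7e-5p -0.11 and let-7i-5p -0.10. The median was -0.59 over the members and -0.26 over all miRNAs.

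The falls between the cultures depended on how the counts were scaled and on GC. rho between GC content and log2 fold change was 0.58 over the 301 miRNAs and 0.90 over the members, and the 91 non-member miRNAs with a GC content up to that of let-7b-5p had a median of -1.61. With the trend removed, let-7d-5p and let-7g-5p turned to 0.23 to 0.39 and 0.30 to 0.49, let-7f-5p lay between -0.64 and 0.45, and miR-98-5p between -0.20 and 0.07. let-7a-5p, let-7e-5p and let-7i-5p also turned, to values of 0.79 to 1.78, and let-7c-5p was at 1.46 to 2.34. let-7b-5p was at 2.28 to 3.11, and it and let-7c-5p were called higher in all 3, while let-7a-5p, let-7e-5p and let-7i-5p were called higher in the first 2, where 30.3 and 31.6% of all miRNAs were called, and not in the last. With library totals in place of TMM, let-7d-5p was at -0.64 and let-7g-5p at -0.91, both under 2-fold. Without spheroid shNeg replicate 1, let-7d-5p was at -0.86 and under 2-fold, and the other 4 calls held, at 1.45 for let-7b-5p and -1.12 for let-7g-5p.

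The change with knockdown differed between the cultures for several members. For RELA, 4 of 9 members had a called difference, beside 7.62% of all miRNAs, and each was higher in spheroids than in adherent cells, namely miR-98-5p (1.61, SE 0.34, edgeR FDR = 0.00108), let-7g-5p (1.29, SE 0.30, edgeR FDR = 0.00323), let-7f-5p (1.22, SE 0.28, edgeR FDR = 0.00274) and let-7a-5p (1.14, SE 0.19, edgeR FDR = 9.67e-05). For RELB, 5 of 9 were called, beside 8.51% of all miRNAs. miR-98-5p (2.08), let-7f-5p (1.98), let-7g-5p (1.61) and let-7a-5p (1.14) had higher changes in spheroids, and let-7b-5p had a lower one (-1.32, SE 0.25, edgeR FDR = 0.000315). All 9 calls held without spheroid shNeg replicate 1, with let-7g-5p at 1.05 for RELA and let-7b-5p at -1.06 for RELB. Other scalings ended some of them. The let-7a-5p difference was under 2-fold with library totals, median-ratio factors, DESeq2 and a filter of 10 CPM, at 0.86 to 0.93 for RELA and 0.74 to 0.99 for RELB. For RELA, let-7g-5p was at 1.01 to 1.08 with the first 3 of these and not past the FDR threshold, nor was it without adherent RELA knockdown replicate 3 (1.15, edgeR FDR = 0.0110), and let-7f-5p was no longer called with library totals (0.98) or median-ratio factors (1.02, edgeR FDR = 0.0104). With GC removed, 1, 0 and 2 of the 4 RELA differences and 1, 1 and 2 of the 5 RELB differences stayed called, let-7b-5p being called for RELB in all 3 versions. Of all miRNAs, 6.42, 6.29 and 6.82% were then called for RELA and 6.29, 5.41 and 6.06% for RELB. let-7b-5p was also called for RELA in the first and second version (-1.63 and -1.66), where it had -0.74 without the correction.

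Most passenger strands were far rarer than their guides, with let-7d in spheroids as an exception. Of 11 passenger strands, 6 passed the filter, and the other 5, let-7a-2-3p, let-7b-3p, let-7c-3p, let-7f-2-3p and miR-98-3p, never exceeded 8 counts in a library, so the fall of let-7b-5p and let-7c-5p could not be followed in the other arm. With RELA knockdown, let-7d-3p rose by 1.08 in adherent cells (SE 0.22, edgeR FDR = 0.000683), and let-7e-3p by 1.03 in spheroids (SE 0.28, edgeR FDR = 0.00510). The spheroid shNeg libraries were at 19.8, 85.5, 109 and 117 CPM of let-7e-3p, the lowest being replicate 1, and those with RELA knockdown at 155 to 180.5 CPM. Without replicate 1 the value was 0.71, under 2-fold, and without replicate 2 it was 1.04 (edgeR FDR = 0.0105), and the call held in neither case. let-7f-1-3p was also called there, with no count in the 4 shNeg libraries and 1 to 8 counts with RELA knockdown, and was not called with any 1 of these shNeg libraries left out. With RELB knockdown no passenger strand was called in either culture.

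let-7d had the most even arms. Between the cultures the 3p arm rose and the 5p arm fell in the main fit, so that their levels came closer. With the trend with GC removed, let-7d-5p did not fall and was at 0.23, 0.39 and 0.31. let-7d-3p was at 87.5, 90.7, 103.6 and 111 CPM in adherent shNeg and at 561, 617, 1022 and 1165 CPM in spheroid shNeg. It rose by 3.10 (SE 0.23, edgeR FDR = 2.44e-13) where let-7d-5p fell by 1.11, and without spheroid shNeg replicate 1 the values were 2.90, still called, and -0.86, not called. The 3p count was 1.48 to 2.11% of the 5p count in adherent shNeg, 19.0, 19.4, 34.4 and 100.5% in spheroid shNeg, 7.13 to 11.4% in RELA knockdown spheroids and 12.6 to 19.7% in RELB knockdown spheroids. The highest was replicate 1, with 1589 counts of the 3p and 1581 of the 5p arm, and without it the spheroid shNeg libraries still lay above all adherent libraries, whose highest was 3.81%. The 3p arm has a GC content of 50% and the 5p arm of 40.9%, and the part of base composition in this ratio was not tested. Between the shNeg cultures, 21.3% of all miRNAs were called higher and 20.9% lower. Of the 6 passenger strands tested, 1 was called higher and 3 lower in spheroid than in adherent shNeg. The lower ones were let-7e-3p (-1.24, edgeR FDR = 0.000289), let-7i-3p (-1.70, edgeR FDR = 0.00198) and let-7f-1-3p (-5.96, edgeR FDR = 0.00169). Their GC contents are 54.55, 59.09 and 40.91%. Without replicate 1, let-7e-3p was at -0.92 and not called, and the calls of the others held. let-7f-1-3p had no count in spheroid shNeg, and let-7i-3p had 1 to 16.

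2 further miRNAs in RefSeq share the let-7 seed, hsa-miR-4458 and hsa-miR-4500. miR-4458 had at most 40 counts and was not called in any comparison, and miR-4500 had none. miR-30e-5p, used as the reference of the study's qRT-PCR, was not called in any knockdown comparison (0.47 and -0.12 in adherent cells, 0.20 and 0.24 in spheroids for RELA and RELB) and fell by 1.69 in spheroid against adherent shNeg.

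Over the 24 libraries, members did not share 1 pattern. The highest Pearson correlation of log2 level between members was 0.95 for let-7g-5p and miR-98-5p, and the lowest was -0.83 for let-7c-5p and let-7d-5p. A ranking by likeness left out the members, their passenger strands, the cluster partners, the miRNAs with the same seed and miR-30e-5p. Of the 316 remaining miRNAs of at least 10 CPM, miR-205-5p was the most like let-7b-5p (r = 0.89), followed by miR-3605-3p (0.81) and miR-642b-5p (0.78). miR-205-5p, an epithelial miRNA, was at 1532 to 1670 CPM in adherent shNeg, 520.5 to 635 CPM with RELA and 567 to 774 CPM with RELB knockdown, and at 1433 to 2621 CPM, 866 to 1148 CPM and 453 to 569 CPM in the spheroid groups in the same order. For the sum of the other 8 members, miR-183-5p (r = 0.91), miR-30c-2-3p (0.86) and miR-196a-5p (0.84) were the most alike. These values are descriptions over libraries that share groups and depth.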

How the data were processed

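RNA from OV90 cells (24 libraries, 6 groups of 4) was extracted with the RNeasy Mini Kit, and libraries for sequencing were made with the QIAseq miRNA Library Kit. The deposited values are estimated counts per mature miRNA, made by the authors with Cutadapt and miRDeep2 against miRBase on GRCh38. Collapsing of molecular identifiers, and how reads 1 mismatch from several members were assigned, are not given in the sources used here. The deposited counts of let-7a-5p were fractional in 15 of 24 libraries and those of let-7f-5p in 10, both being cut from several hairpins, the other members were whole (tolerance 0.02), and 3.045% of the non-zero values of the table were not whole. They were rounded.

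Of 2656 miRNAs, 905 had at least 1 CPM in at least 4 libraries. A quasi-likelihood model of edgeR 4.0.16 (R 4.3.3) was fitted to all 24 libraries with TMM factors and 1 coefficient a group. FDR is the Benjamini-Hochberg value over the 905 miRNAs, and the thresholds (FDR below 0.01, fold change above 2) are those of the study. Intervals are at 95%. A count of 3 corresponded to 0.362 to 3.13 CPM. Alternatives used DESeq2 1.42.0, limma 3.58.1 on log2(CPM + 1), other scalings and filters, a replicate block and each library left out, the last extended to the related miRNAs over the spheroid shNeg libraries after seeing the data. Scripts were tested on simulated data. Sequences and loci came from RefSeq (GRCh38.p14), with hosts from the gene annotation, and 2367 of 2656 miRNAs had a sequence.

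The members, the lists of passenger strands, cluster partners and markers, and the tests were chosen with earlier results of these data known. The text names all 9 members, the called members of each comparison, the listed relatives, and the 3 miRNAs most like each pattern.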

Additional observations from a re-analysis of the deposited data

Results flagged for a closer look

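In 54 groups of 4 libraries, 1 for each member and group, the most distant library was compared with its neighbour by Dixon's criterion, which chance alone passes in about 2.7 of them. It was passed in 2, both by spheroid shNeg replicate 1. let-7b-5p was at 6196 CPM there, against 3149 to 3652 CPM in the other libraries of the group, and let-7d-5p at 1159 CPM, against 2888 to 3239 CPM. This library also had the fewest miRNAs with a count, 432.

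The change with knockdown differed between spheroid and adherent cells in the edgeR test of the difference itself. For RELA the difference was 1.14 for let-7a-5p, 1.22 for let-7f-5p, 1.29 for let-7g-5p and 1.61 for miR-98-5p on the log2 scale. For RELB it was 1.14 for let-7a-5p, -1.32 for let-7b-5p, 1.98 for let-7f-5p, 1.61 for let-7g-5p and 2.08 for miR-98-5p. Both sets share the spheroid and adherent shNeg libraries.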

How the results depend on the processing

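The 9 counts of called members, the family shares and the single-member values were recomputed under the alternatives. Single-member values were limited, after seeing how many reversed, to all 9 members in the knockdown and culture comparisons and to the called members in the others. Of these, 1332 stayed the same, 78 became weaker, 12 stronger and 54 reversed, and except where a value shows it the cause was not tested. Here the same means an unchanged sign and an unchanged call, at any size of the value. Weaker means a call lost, stronger a call gained, and reversed a changed sign. A value that shrank without a change of call therefore counts as the same. The calls of let-7b-5p with either knockdown in either culture, and of miR-98-5p in both spheroid knockdowns, held throughout.

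Correction for GC was added after seeing the data, because fold changes in spheroids ran with GC. The first version took the trend from all miRNAs with a sequence (795 of 905). As it weakened or reversed many members, a second took it from those of at least 10 CPM, which moved several members further, and the last left out spheroid shNeg replicate 1. All 3 are given in this order, and the TMM fit planned at the start stays the main one. Members called were 5, 3 and 5 with RELA knockdown in spheroids (8 with TMM alone), 2, 2 and 3 with RELB knockdown (4), 5, 5 and 2 between the cultures (5, mostly other members), 1, 1 and 1 for RELB against RELA knockdown in adherent cells (3), and 2, 1 and 2 for the RELA (4, of which 1, 0 and 2 stayed called, the other member being let-7b-5p) and 1, 1 and 2 for the RELB difference between cultures (5, all of these among them). Of all miRNAs, 13.3, 11.8 and 10.1% were called with RELA and 13.5, 12.3 and 12.8% with RELB knockdown in spheroids. Between the cultures 30.3, 31.6 and 28.7% were called, and for RELB against RELA knockdown in adherent cells 11.9, 12.5 and 15.2%. For the differences between cultures the shares were 6.42, 6.29 and 6.82% for RELA, and 6.29, 5.41 and 6.06% for RELB.

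Members reversed under GC correction as follows. Between the cultures, let-7a-5p was at 1.28, 1.52 and 0.91, let-7d-5p at 0.23, 0.39 and 0.31, let-7e-5p at 1.46, 1.63 and 0.97, let-7g-5p at 0.30, 0.49 and 0.38, let-7i-5p at 1.60, 1.78 and 0.79, let-7f-5p at 0.054 and 0.45 in the first and second version, and miR-98-5p at 0.07 in the second. With RELB knockdown in spheroids, let-7d-5p was at -0.22, -0.37 and -0.29, let-7a-5p at -0.030 and -0.30 and let-7i-5p at -0.46 and -0.63 in the first and second, and let-7c-5p at -0.11 and let-7e-5p at -0.056 in the second. With RELA knockdown in spheroids, let-7i-5p was at -0.39 and -0.54 in the first and second. With RELB knockdown in adherent cells, let-7i-5p was at 0.053, 0.0062 and 0.052, miR-98-5p at 0.44, 0.31 and 0.44, and in the first and the last let-7f-5p was at 0.044 and 0.045 and let-7g-5p at 0.066 and 0.066. The RELB difference between cultures of let-7a-5p was -0.13 in the second.

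Other scalings reversed members near 0. Between the cultures, let-7e-5p was at 0.017 with DESeq2, 0.017 with median-ratio factors, 0.32 with library totals, 0.28 with a filter of 10 CPM and 0.15 with only the groups compared, and let-7i-5p at 0.023, 0.023, 0.31, 0.32 and 0.14. miR-98-5p with RELB knockdown in adherent cells was at 0.12 with library totals, 0.076 with a filter of 10 CPM, and from -0.081 to 0.067 with 1 library left out at a time, above 0 without replicate 2 of adherent shNeg or of RELB knockdown. With library totals, 1 member was called for RELB against RELA knockdown in adherent cells, 3 between the cultures and 2 for the RELA difference between cultures, 1 of these (let-7b-5p, -1.01) lower in spheroids and not called with TMM. DESeq2 gave 2 and median-ratio factors 1 for the RELA difference. With only the groups compared, 3 were called between the cultures, where 257 miRNAs were called in place of 382. At any fold change, 5 were called for RELB against RELA knockdown in adherent cells and 7 with RELB knockdown in spheroids. The share of all miRNAs called at any fold change was not computed. No such share is given for the counts with library totals, DESeq2, median-ratio factors, 1 library left out or a replicate block. They describe the members only.

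Leaving out 1 library at a time gave 2 to 3 called members with RELA and 1 with RELB knockdown in adherent cells. In spheroids it gave 7 to 8 and 4 to 6, and between the cultures 4 to 5. For RELB against RELA it gave 3 to 4 in adherent cells and 3 in spheroids. The RELA and RELB differences had 3 to 5 and 5. let-7e-5p lost its RELA call in spheroids without spheroid shNeg replicate 2 (0.996) or 4 (0.96). Calls were gained without adherent RELA knockdown replicate 3 by miR-98-5p (1.02 against shNeg, -1.03 for RELB against RELA), without spheroid RELB knockdown replicate 3 by let-7c-5p (1.04) and let-7e-5p (1.02), and for the RELA difference by let-7e-5p without adherent shNeg replicate 2 (1.03) or adherent RELA knockdown replicate 1 (1.01).

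Library totals moved the share of higher calls over all miRNAs from 49.6 to 19.1% with RELA and from 54.6 to 34.2% with RELB knockdown in spheroids, from 29.4 to 17.7% and 50.0 to 62.2% in adherent cells, from 50.5 to 61.8% between the cultures, from 61.2 to 78.3% and 58.3 to 74.6% for RELB against RELA, and from 56.5 to 27.5% and 54.6 to 19.1% for the differences between cultures. The median of all miRNAs moved from 0.09 to -0.25 with RELA knockdown in spheroids. Calls over all miRNAs with only the groups compared were 54 against 34 and 117 against 64 in adherent cells, 66 against 137 and 41 against 121 in spheroids, and 150 against 98 for RELB against RELA in adherent cells.

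Replicate numbers were not shown to pair libraries, since no comparison had all correlations of same-numbered libraries above 0.1. With a replicate block the members called were 2, 1, 8 and 4 in the knockdown comparisons, 5 between the cultures, 3 and 3 for RELB against RELA, and 4 and 5 for the differences, and no call changed. Depth limits the spheroid shNeg libraries most, where 3 counts were up to 3.13 CPM.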
